A study of Mus musculus with 4 samples.

Results

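The Peg13, Trappc9 and Kcnk9 imprinted domain of mouse chromosome 15 was examined for H3K27ac, the acetylated form of a lysine in the histone H3 tail that is found at promoters and enhancers in use. The domain ran from 10 kb below Kcnk9, its first member gene, to 10 kb above Ago2, its last, that is from 72491873 to 73194947 on mm10, a length of 703 kb. Its members are the H3K27ac peaks that overlap this span, 60 of the 91557 peaks listed for Smchd1-deleted cells and 25 of the 63613 listed for Smchd1-control cells on chromosomes 1 to 19 and X. The domain was chosen by its excess of peaks in the deleted list, so that excess is given as a description and carries no test.

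The chromatin came from neural stem cell lines of female E14.5 embryos, and H3K27ac was mapped in it by ChIP-seq, in which antibody-bound DNA fragments are sequenced. Deleted cells (Smchd1 del/del) were made with a retrovirus bearing Cre recombinase and a puromycin cassette, were put under puromycin 24 h later and were collected on day 7. Control cells came from the same lines and were left without virus, so deletion, transduction and selection cannot be told apart. Their ChIP is titled Smchd1 fl/fl, whereas the genotype field and the derivation from Smchd1 del/fl embryos give them 1 deleted allele already. All cells carried a 129 maternal X with an Xist deltaA allele and a Castaneus paternal X, under a C57BL/6 strain label, and the input of the control cells is labelled del/del in its genotype field. The antibody field of both ChIP libraries names H3K27me3, against titles that name H3K27ac. There was 1 ChIP and 1 input library per group and no replicate, so every difference is between 2 libraries.

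After filtering, the ChIP library of deleted cells had 54194233 tags and that of control cells 42277672, or 1.28 times as many in deleted cells, and the inputs had 77101643 and 80601280. A gene end was taken as 1 kb to either side of the first or last base of a gene, since the gene table has no strand. Both lists had gene-end peaks at 9 of 10 neural stem cell markers (among them Sox2, at a fold enrichment of 20.7 in deleted and 20.6 in control cells), 1 of 7 neuron, 1 of 6 fibroblast, 1 of 6 microglia, 0 of 6 endothelial and 1 of 6 oligodendrocyte markers. Among the 34328 annotated genes the percentage with a gene-end peak was 38.7% for both lists together, 6.65% for the deleted list alone and 1.44% for the control list alone.

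Imprinted genes are expressed mainly from the maternal or mainly from the paternal copy. Peg13 is a long non-coding RNA made from the paternal copy inside the gene Trappc9, and its start lies in a region methylated on the maternal copy. In mouse brain the neighbours Kcnk9, Trappc9, Chrac1 and Ago2 are expressed more from the maternal copy, and Smchd1 is a chromatin protein known for its part at the inactive X and at several imprinted clusters. The peak lists do not separate the parental copies, so no value below belongs to 1 allele.

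H3K27ac stood at the same 4 gene ends in both cultures, at Peg13, Trappc9, Chrac1 and Ago2, and no peak of either list fell on Kcnk9. What set the lists apart was a large number of weak peaks of the deleted list, most of them inside the part of Trappc9 above Peg13 and inside Ago2. In that upper part of Trappc9 there were 32 deleted peaks and 10 control peaks, and in Ago2 there were 14 and 3. Fold enrichment is the pileup of fragments at the summit of a peak over the local background of the library's own input, as the authors' peak caller wrote it, and is not scaled between libraries.

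**Figure D1:**
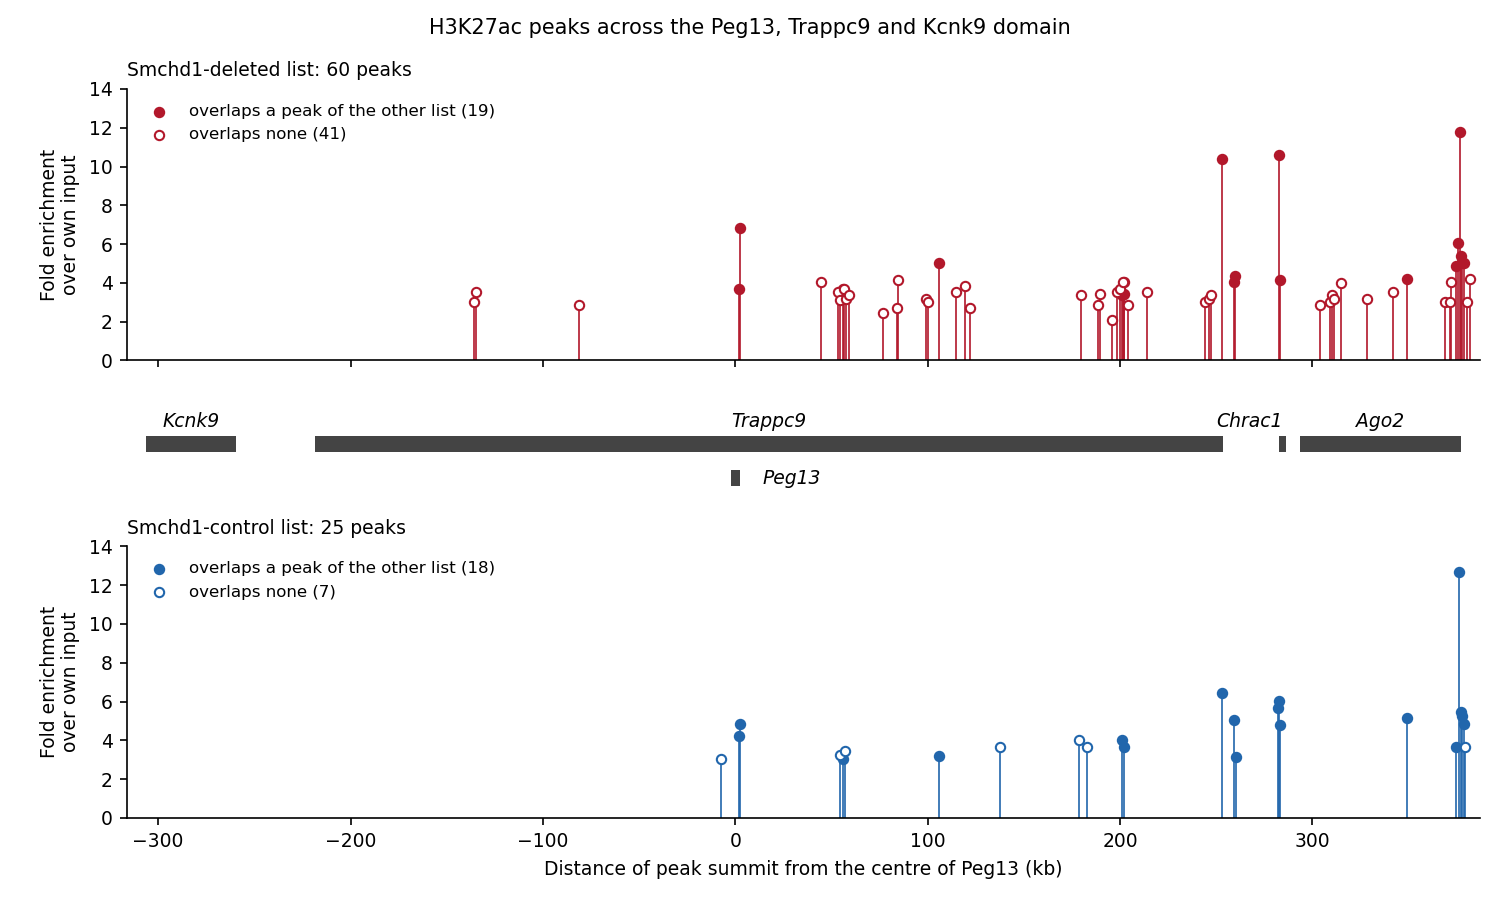
Fold enrichment over the own input (vertical axis) of each peak against the distance of its summit from the centre of Peg13 in kb, for the Smchd1-deleted list (top, 60 peaks) and the Smchd1-control list (bottom, 25 peaks), with the 5 genes drawn to scale between them. Filled points overlap a peak of the other list and open points overlap none; the tall points stand at the gene ends in both lists, and the open points, 41 deleted and 7 control, are all of low enrichment.

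Peg13, from 72805602 to 72810324, had 2 peaks in each list, all at its higher-numbered end. The stronger deleted peak (72810083 to 72810578) had a pileup of 40 fragments and a fold enrichment of 6.83, against a pileup of 23 and a fold of 4.84 for the control peak it overlaps (72810123 to 72810301). The second deleted peak (72809441 to 72809806) reached 3.69 and its control counterpart (72809706 to 72809895) 4.20. So the stronger peak was higher in the deleted list and the weaker one higher in the control list. The deleted peaks of Peg13 spanned 862 bases and the control peaks 369 bases.

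Trappc9 encodes a subunit of the TRAPP complex, which acts in transport between the endoplasmic reticulum and the Golgi, and at 472 kb (72589620 to 73061238) it takes up most of the domain. At its higher-numbered end the deleted peak (73060620 to 73061030) had a pileup of 61 and a fold of 10.4, and the control peak (73060375 to 73061042) had 31 and 6.46. Its lower-numbered end had no peak in either list. Counting the Peg13 peaks within it, Trappc9 held 37 deleted and 13 control peaks, which covered 2.20% of the gene in the deleted list, against 0.781% in the control list.

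Chrac1, a histone-fold subunit of the CHRAC chromatin remodelling complex, lies from 73090412 to 73094075. At its lower-numbered end the deleted list had a peak of 691 bases (73089992 to 73090682) with a pileup of 62 and a fold of 10.6, which overlapped 2 control peaks with pileups of 27 and 29 and folds of 5.65 and 6.05. A further peak inside the gene stood at 4.14 in the deleted list, against 4.80 in the control list. Here too the main summit was higher in the deleted list while the secondary peak was not.

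Ago2, an Argonaute protein that carries small RNAs and cuts their targets, lies from 73101625 to 73184947 and had the strongest peak of the domain in each list. At its higher-numbered end the deleted peak (73183788 to 73184674) had a pileup of 69 and a fold of 11.8, and the control peak (73183342 to 73184626) had 62 and 12.7. The control peak, at 1285 bases the widest of its list in the domain, also overlapped a second deleted peak of fold 6.04. Above the gene end 3 further peaks were paired between the lists, at folds of 5.37, 5.04 and 5.04 in deleted cells and 5.45, 5.25 and 4.84 in control cells. Of the 4 members with peaks, Ago2 alone had a main summit whose fold was not higher in the deleted list. Below that end, inside the gene, 2 further pairs stood at folds of 4.87 (73182483 to 73182848) and 4.20 (73156615 to 73157091) in the deleted list, against 3.63 and 5.17 in the control list.

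Kcnk9, a two-pore potassium channel, lies from 72501873 to 72548614 and had 0 peaks in both lists. The 10 kb below it and the 41.0 kb between it and Trappc9 were also empty. The peak nearest to Kcnk9 inside the domain was 72672181 to 72672357 in the deleted list (fold 3.02) and 72800601 to 72800836 in the control list (fold 3.03), both within Trappc9.

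To set the main summits of the 4 gene ends beside the rest of the genome, the deleted pileup was scaled to the control depth and divided by the pileup of the strongest control peak it overlaps. The quotient was 1.67 at Chrac1 (95% interval 1.06 to 2.69), 1.54 at Trappc9 (0.981 to 2.45), 1.36 at Peg13 (0.793 to 2.37) and 0.868 at Ago2 (0.607 to 1.24). These exact intervals cover counting error only and, like the summits themselves, come from values chosen as local maxima. Over 22491 such pairs with a fold of at least 5 in either list the median was 0.982, and 90% of them lay between 0.607 and 1.44. Of those pairs 1.12% had a quotient as high as Chrac1, 2.83% as high as Trappc9, 8.16% as high as Peg13 and 69.2% as high as Ago2. The 2 libraries have no replicate to set these quotients against. The domain was also chosen by its excess of deleted peaks, so the quotients, intervals and percentages are a description and test nothing.

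Across the domain 20 pairs of overlapping peaks joined 19 deleted and 18 control peaks. The deleted fold was the higher in 10 pairs and the control fold in 10. The median difference in fold was 0.0600. By the percentile of its fold within its own list, the deleted peak was the higher in 14 pairs and the control peak in 6. The median difference in percentile was 10.2. No such split is given for pairs over all chromosomes. Among pairs that involve none of the main gene-end peaks, the widest difference was inside Trappc9 from 72913983 to 72914214, with a fold of 5.04 in the deleted list, against 3.20 in the control list. Between Trappc9 and Chrac1 the pair at 73066877 to 73067269 went the other way, with 4.03 in the deleted list, against 5.04 in the control list. Summits of a pair lay a median of 61.5 bases apart, with a range of 5 to 514 bases.

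**Figure D2:**
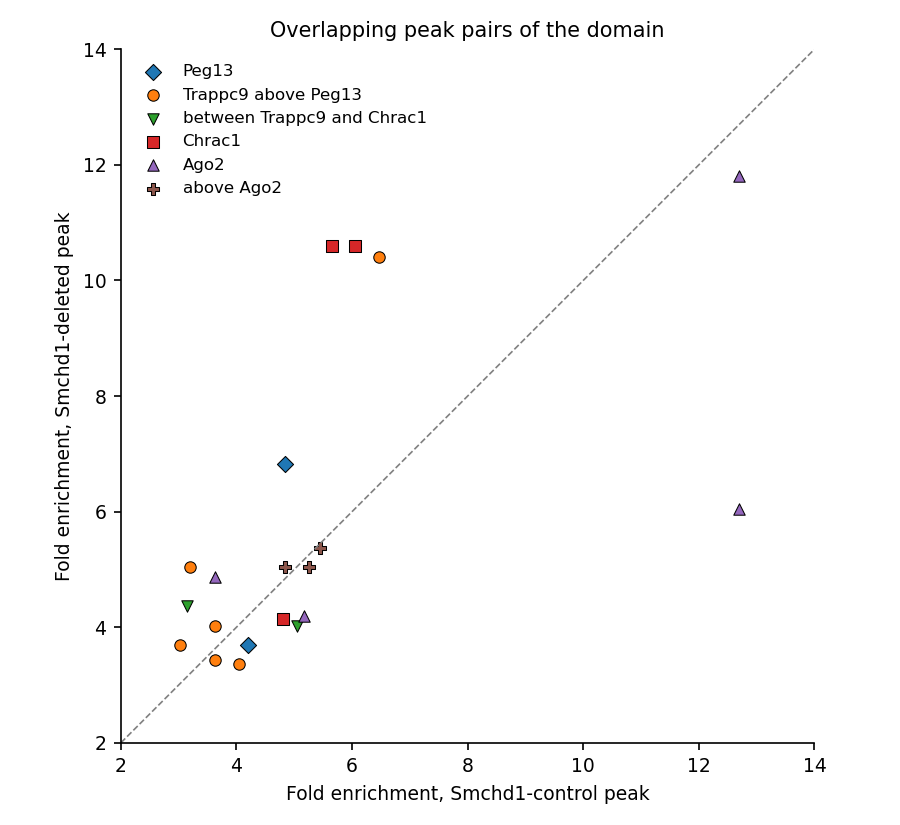
Fold enrichment of the deleted peak (vertical axis) against that of the control peak (horizontal axis) for the 20 overlapping pairs of the domain, with symbols for the stretch they lie in and a dashed line of equal values. The ends of Trappc9 and Chrac1 and the stronger Peg13 peak lie above the line, the Ago2 end below it, and 10 pairs fall on each side.

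Of the 60 deleted peaks, 41 overlapped no control peak by a single base, or 68.3% (exact 95% interval 55.0 to 79.7), against 50.6% of all deleted peaks and 50.8% (49.3 to 52.3) on chromosome 15. Of the 25 control peaks, 7 overlapped no deleted peak, or 28.0% (12.1 to 49.4), against 24.3% of all control peaks and 24.0% on chromosome 15. The deleted percentage is part of what chose the domain, and the control one lies near its background. The ratio of deleted to control peaks was 2.40 (1.48 to 3.99) in the domain, 1.45 on chromosome 15 and 1.44 over all chromosomes. Covered length was 18.6 kb in the deleted list, against 7.83 kb in the control list, a ratio of 2.38 where chromosome 15 had 1.49, all chromosomes 1.48 and each flank of the same length 1.19.

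The deleted peaks without a control counterpart were all weak. Their folds ran from 2.11 to 4.20 with a median of 3.19, which is also the median of such peaks over all chromosomes, and their pileups ran from 16 to 26 fragments. The 19 deleted peaks that overlap a control peak had folds from 3.36 to 11.8 with a median of 4.87. At a fold of at least 4.5 the domain held 10 deleted and 11 control peaks, and 0 peaks of either list were without a counterpart. At lower limits the deleted list had more peaks, with 52 deleted and 25 control peaks at 3 or more and 21 and 14 at 4 or more. Over all chromosomes the ratio of deleted to control peaks was 1.27 at 3 or more, 1.03 at 4 or more and 1.07 at 4.5 or more.

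**Figure D3:**
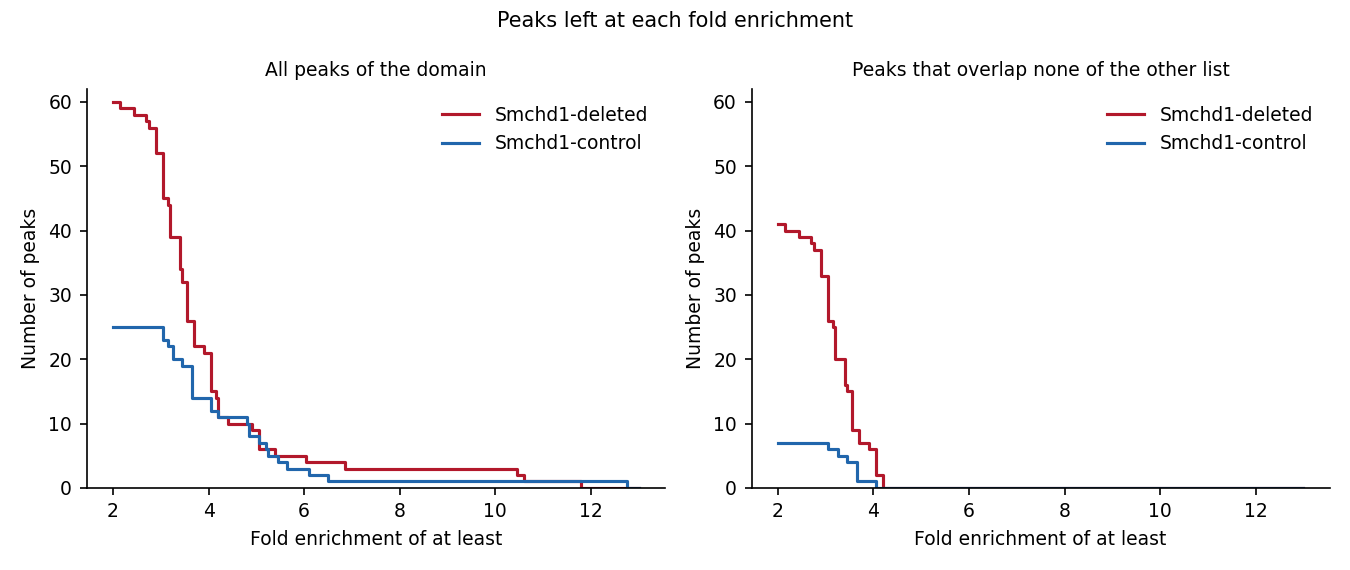
Number of peaks in the domain (vertical axis) left at each lowest fold enrichment (horizontal axis), in the Smchd1-deleted and Smchd1-control lists, for all peaks (left) and for peaks that overlap none of the other list (right). The deleted curve runs above the control curve at low folds, both stand near 10 at a fold of 4.5, and above 4.20 no peak of either list is without a counterpart. At higher limits few peaks are left, 5 deleted and 3 control at a fold of 6 and 3 and 1 at 8.

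The strongest of the 41 were a peak above Ago2 from 73189903 to 73190215 (4.20) and one inside Trappc9 from 72892376 to 72892566 (4.17). After them came 3 peaks of fold 4.03, of which 72852259 to 72852475 and 73009380 to 73009594 lay in Trappc9 and 73179909 to 73180237 in Ago2. Another Ago2 peak from 73122523 to 73122726 had a fold of 4.0. Further Trappc9 peaks stood at 3.86 (72927458 to 72928037), 3.69 (72864298 to 72864534) and 3.67 (73007775 to 73008049), and 5 peaks tied at 3.53 for the next place. The widest deleted peak of the domain, 986 bases inside Ago2 from 73149091 to 73150076, was one of these 5. Many folds are equal because most peaks have the genome-wide background, so that the fold follows the whole-number pileup.

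Deleted peaks without a control counterpart, called unpaired here, were not spread evenly. Of the 41, the upper part of Trappc9 held 26, Ago2 held 10, the lower part of Trappc9 held 3 and the 10 kb above Ago2 held 2. The 2 parts of Trappc9 are of like length, 216 kb below Peg13 and 250 kb above it, yet the lower one had 3 deleted and 1 control peak in all. That is 13.9 deleted and 4.63 control peaks per Mb below Peg13, against 128 and 40.0 per Mb above it. Both lists thus had fewer peaks per Mb below Peg13 than above it, though the control value below rests on 1 peak. The border at Peg13 was set by the choice of stretches and not found from the peaks. That control peak began at 72800601, and the first peaks above Peg13 began at 72852259 (deleted) and 72862587 (control). Whether the density changes at Peg13 itself was not tested. In Ago2 the density was 168 peaks per Mb in the deleted list, against 36.0 in the control list.

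**Figure D4:**
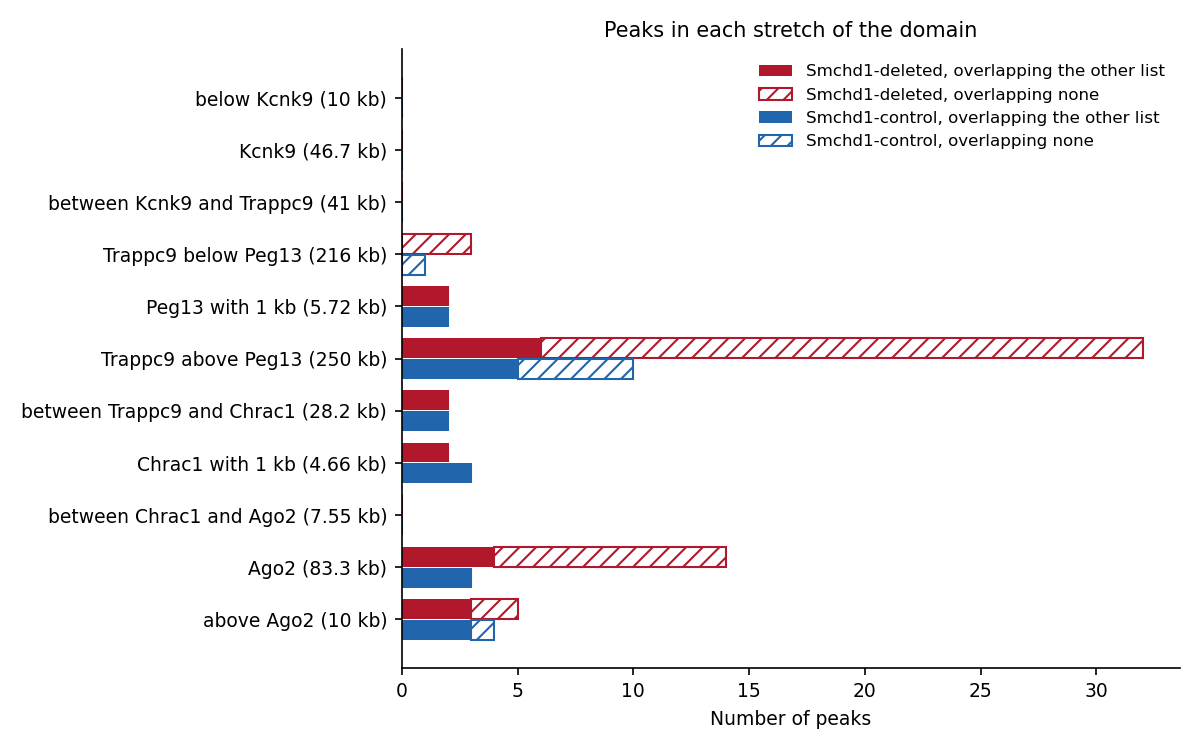
Number of peaks (horizontal axis) in 11 consecutive stretches of the domain, from below Kcnk9 to above Ago2, with Smchd1-deleted bars above Smchd1-control bars. Solid bars overlap a peak of the other list and hatched bars overlap none; the hatched deleted bars are longest in Trappc9 above Peg13 (26 peaks) and in Ago2 (10 peaks), and the stretches at Peg13 and Chrac1 have no hatched bar.

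Peaks no more than 3 kb apart were joined into stretches, of which the deleted list had 26 and the control list 13. Of these, 17 deleted and 4 control stretches held no peak of the other list. No such count is given outside the domain, and over all chromosomes 50.6% of deleted and 24.3% of control peaks were unpaired. Besides the 13.4 kb at the Ago2 end, with 11 deleted and 6 control peaks, 2 stretches inside Trappc9 were rich in peaks. The one from 73003996 to 73012156 had 8 deleted and 2 control peaks, and the one from 72861434 to 72867033 had 6 deleted and 3 control peaks. The 3 Ago2 peaks from 73117284 to 73119305, of folds 3.02 to 3.36, were without any control peak, as were the 3 Trappc9 peaks from 73052086 to 73055288.

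Of the 41 unpaired deleted peaks, 8 lay within 1 kb of a control peak, 17 between 1 and 10 kb from one and 16 farther away. Of the 7 unpaired control peaks, 4 lay within 1 kb of a deleted peak. These distances have no value over all chromosomes beside them. The control peaks without a counterpart were 72800601 to 72800836 (3.03), 72862587 to 72862767 (3.23), 72864781 to 72864982 (3.43), 72945401 to 72945666 (3.63), 72986692 to 72986914 (4.04) and 72990810 to 72991020 (3.63) in Trappc9, and 73187179 to 73187409 (3.63) above Ago2. All but the last are in the gene that also holds most unpaired deleted peaks. Of those in Trappc9, 3 are within 500 bases of a deleted peak (72862236 to 72862411, 72864298 to 72864534 and 72987406 to 72987734). The one above Ago2 is 247 bases from a deleted peak (73186753 to 73186932).

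Depth, peak width and input were set beside these counts as follows. The unpaired deleted peaks had a median pileup of 19 fragments, or 14.8 at the control depth, while the lowest control peak had 14 in the domain and 12 in the whole list. Thinned to the control depth, 55.5 of the 60 deleted peaks were calculated to keep the lowest control −log10 p of 3.27, which gives a ratio of 2.22, against 1.33 on chromosome 15 and 1.32 over all chromosomes. The limit of 3.27 is that of the whole control list, and the lowest control −log10 p in the domain was 4.75. The calculation also leaves out the smallest width the caller allows, 171 bases in the deleted list, against 175 in the control list. It may thus keep too many peaks, and how much of the excess follows from depth was not tested. At most 200 bases wide were 21 of the 60 deleted peaks of the domain, against 18.8% of all deleted peaks. They were 15 of the 41 unpaired and 6 of the 19 paired deleted peaks. No such share is given for unpaired peaks over all chromosomes. The median width of deleted peaks was 228 bases in the domain, against 311 over all chromosomes. For control peaks these medians were 238 and 313 bases. In lists of equal length, kept by −log10 q, the domain had 41 deleted and 25 control peaks and the ratio was 1.64 (0.974 to 2.81), where the whole lists have a ratio of 1 by construction. The local input background was above its genome-wide floor at 14.6% of the unpaired deleted peaks, the same percentage as over all deleted peaks, and at 1 of the 25 control peaks.

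Regions of the same length on each side were set beside the domain. The ratio was 1.44 (0.571 to 3.83) in the lower one, from 13 deleted and 9 control peaks, and 1.33 (1.000 to 1.77) in the upper one, from 117 and 88. Unpaired peaks were 53.8% (25.1 to 80.8) of deleted and 33.3% of control peaks in the lower region, and 46.2% (36.9 to 55.6) and 26.1% in the upper one. The next deleted peak outside the lower edge was 283 kb away (fold 4.03) and the first inside it 180 kb away (3.02). At the upper edge they stood 6.31 kb outside (4.50) and 4.73 kb inside (4.20). In the control list the nearest peaks were 601 kb outside (4.04) and 309 kb inside (3.03) the lower edge, and 7.36 kb outside (5.60) and 7.54 kb inside (3.63) the upper edge.

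**Figure D5:**
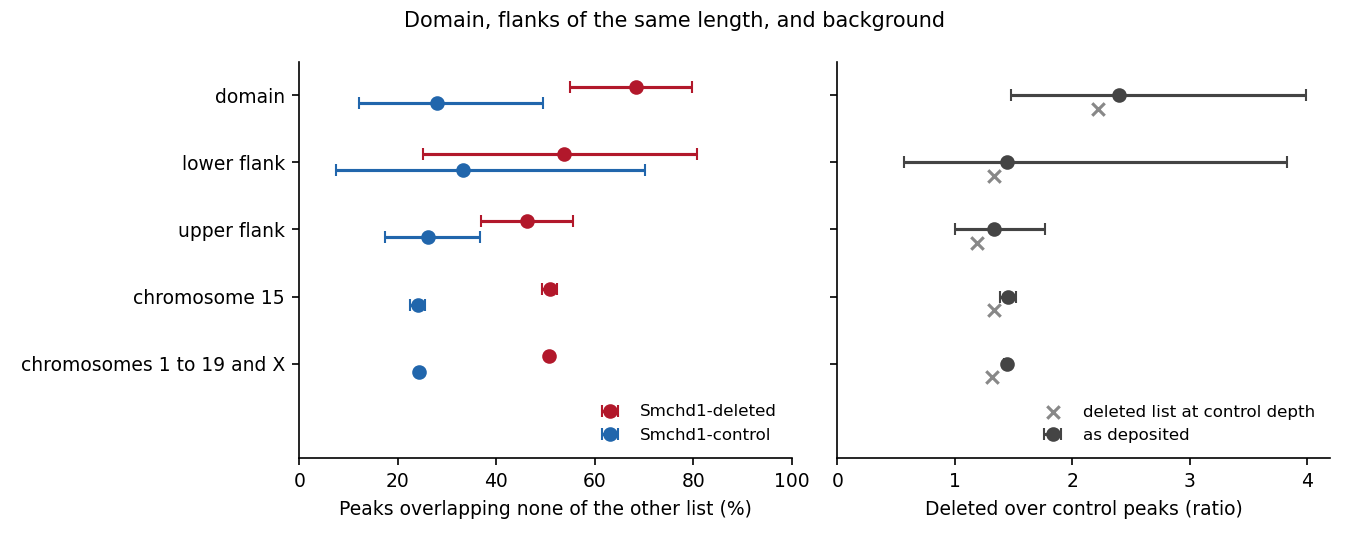
Percentage of peaks that overlap none of the other list (left; Smchd1-deleted and Smchd1-control points with exact 95% intervals) and ratio of deleted to control peaks (right; points with intervals from the same binomial, crosses for the deleted list at the control depth) for the domain, its 2 flanks, chromosome 15 and chromosomes 1 to 19 and X. The domain has the highest deleted percentage (68.3%) and ratio (2.40), for which it was chosen; the bars show counting error only and test nothing about it.

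The other annotated genes of the domain carried little H3K27ac. The lncRNA Gm41343, the protein-coding Gm31665 and the pseudogene Gm28020 had no peak in either list inside the gene or at an end. The pseudogene Gm3150, inside Trappc9, lay beside the paired peak of folds 5.04 and 3.20 named above. The lncRNA Gm31725, inside Ago2, had 1 deleted peak (fold 2.85) and 0 control peaks.

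Relatives of the member genes were counted in lists by role. The members of the domain are included in these lists. Of 15 TRAPP subunits, 14 carried H3K27ac at a gene end in both cultures and 0 in 1 culture only. The exception, Trappc3l, had no peak at its ends. Trappc9, at 10.4 in the deleted list, against 6.46 in the control list, stood beside Trappc11 (12.1 and 10.1), Trappc8 (12.8 and 10.1) and Trappc10 (7.39 and 7.00), while Trappc1 (7.72 and 10.4), Trappc13 (7.39 and 9.68), Trappc2 (6.04 and 6.86) and Trappc12 (4.38 and 4.84) were lower in the deleted list. Of 13 genes for Argonaute proteins and small RNA processing 12 had a peak in both lists, including Dicer1 (8.73 and 9.08), which cuts small RNA precursors, and Ago1 (7.22 and 5.85), while Ago3 had none at its ends. Of 10 CHRAC and related remodelling genes 8 had one in both lists, among them Pole3, the histone-fold partner of Chrac1 (9.75 and 9.29), and the ATPase gene Smarca5 (11.2 and 10.9), with Rsf1 (11.9 and 14.7) lower in the deleted list. These shares lie above the 38.7% of all genes and include 0 genes of 1 list only.

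Fewer of the two-pore potassium channels, the family of Kcnk9, carried peaks. Of all annotated genes, 38.7% had gene-end peaks in both lists, 6.65% in the deleted list alone and 1.44% in the control list alone. Of the 14 channel genes, Kcnk5 was the 1 with gene-end peaks in both lists (5.21 in the deleted list, against 4.44 in the control list). A further 3 had them in deleted cells alone and 1 in control cells alone. Those of the deleted list only were Kcnk10 (5.54), Kcnk4 (3.69) and Kcnk7 (3.69), and that of the control list only was Kcnk3 (3.00). The other 9, Kcnk9 among them, had none. Counting a peak anywhere in the gene, which 43.8% of all genes had in both lists, 6 channels had one in both cultures, 2 in deleted cells alone and 6 in neither, and Kcnk9 was again in the last class. Of 12 genes for imprint maintenance and insulation, 6 carried a peak at a gene end in both cultures, such as Ctcf, the insulator protein (13.4 and 9.89), Trim28 (9.74 and 8.27) and Uhrf1 (6.21 and 6.86), and 1 in the deleted list only. That gene was Zfp445 (4.33), a zinc-finger protein that binds imprinted control regions, and it had a peak elsewhere in the gene in both lists.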

How the data were processed

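The submitters' processing notes name bcl2fastq, Bowtie 0.12.9 and the mm10 build. The file headers record narrow peak calling by MACS2 2.1.0.20140616, ChIP against the input of the same cells, with a q-value cutoff of 0.05, tags of 80 bases, duplicate positions reduced to 1 tag and the bigger of ChIP and input sampled down. Each deposited list gives the position of a peak, its summit pileup signal, its fold enrichment (a ratio to the local background within 1 library) and the −log10 of its p and q values, which are the authors' own.

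Groups were taken from the sample titles. Peaks of chromosomes 1 to 19 and X entered the comparison, made with Python 3.11.15, pandas 2.3.3 and scipy 1.17.1. Peaks of the 2 lists were paired when they shared at least 1 base. The local background was recovered as (pileup + 1) / fold − 1, which returned the deposited −log10 p of the domain's peaks to within 1.6e-05, and was called above the floor when over 2% higher than the lowest of its list. Stretches were assigned by the centre of a peak. The 95% intervals of shares are exact (Clopper-Pearson), and those of ratios come from the same binomial. The thinned count sums, over deleted peaks, the binomial chance that a pileup scaled by 0.780 keeps the lowest control −log10 p. Overlap counting was tested on simulated data and returned the planted overlaps. With 1 library per group no p-value between conditions is given.

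Gene positions are RefSeq's for GRCm38.p6, the assembly that mm10 names. Genes named are the members, all other genes of the domain, and list genes with a gene-end peak in 1 list only, and other list genes are examples picked with their values known. Peaks named are the 10 most enriched of each list and of the unpaired deleted peaks, all unpaired control peaks, the widest and those nearest to the members. The members and lists were chosen with earlier results of these data known. The alternatives were other thresholds, overlaps, extensions and windows.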

Additional observations from a re-analysis of the deposited data

How the results depend on the processing

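Each group has 1 library and no replicate here, and depth limits which weak peaks a list can hold. No paired analysis was possible because the groups share a single replicate number. With folds limited to 5 or more, 9 deleted and 8 control peaks were left in the domain and the ratio was 1.12 (0.385 to 3.35), while 33.3% of those deleted peaks overlapped no control peak that passed the same limit, against a ratio of 1.04 and 26.9% over all chromosomes. All 9 overlapped some control peak, so against all control peaks the percentage was 0 (0 to 33.6), a comparison added after the data were seen. By this rule no percentage is given over all chromosomes, and the 26.9% follows the other rule. At −log10 q of at least 5 the domain held 28 deleted and 14 control peaks and the ratio was 2.0, with 57.1% of deleted peaks unpaired, against 1.29 and 41.3% over all chromosomes. In lists of equal length, with a ratio of 1.64 in the domain and of 1 in the whole lists by construction, 53.7% (37.4 to 69.3) of deleted peaks were without a counterpart, against 38.3% over all chromosomes. The fewer peaks follow from the stricter limits themselves. The remaining alternatives gave ratios between 2.08 and 2.62 and deleted-only percentages between 63.5% and 71.7%. The count of members with a gene-end peak in both lists was 4 with windows of 1000 and 2500 bases and with a peak anywhere in the gene, and 3 at a fold of at least 5, where Peg13 was left out because its control peaks stood below that limit.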

Other observations

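Beyond the upper edge of the domain the next gene, Ptk2, which encodes focal adhesion kinase, held 20 deleted and 11 control peaks, with 12 and 3 unpaired. Farther up, Ptp4a3, a protein tyrosine phosphatase gene, held 25 peaks in each list, with 10 and 6 unpaired, and Dennd3 held 12 deleted and 8 control peaks. Over all chromosomes 50.6% of deleted and 24.3% of control peaks were unpaired, and these counts were not tested against those shares. Below the domain the collagen gene Col22a1 held 12 of the 13 deleted peaks and all 9 control peaks of the neighbouring region. These genes were described after their values were seen.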
